A study of Mus musculus with 60 samples.

Results

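The fetal brains considered here are those that an inferred sample order assigns to the R-tg line of mice at a chlorpyrifos oxon dose of 0.85 mg/kg/d (5 arrays) or at a dose of 0 (5 arrays), 10 of the 60 arrays of the series. R-tg mice carry a human PON1 transgene with arginine at residue 192, tgHuPON1R192 in the labels, on a B6.129 background. Their dams received chlorpyrifos oxon (CPO) on 12 days, gestational days 6 to 17, and the brains were collected on day 18. For each dam, RNA of its fetuses' brains was combined and hybridized to 1 Affymetrix Mouse Gene 1.0 ST array, so the dam is the replicate, and the pool can hold fetuses of both sexes. The series description states that the dams were a random draw from those whose brain acetylcholinesterase activity was not outlying in their group. The groups used beside these were R-tg at 0.75 mg/kg/d, wild type (WT) at 0.85 and 0, and Q-tg (human PON1 with glutamine at residue 192, tgHuPON1Q192) at 0.85 and 0, with 5 arrays each. All were of the same strain background, and the control dose of 0 was given over the same days. The labels do not name the promoter of the transgene, the number of founder lines, or whether the mouse Pon1 gene is intact in the transgenic lines.

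Chlorpyrifos oxon is the active metabolite of the insecticide chlorpyrifos. It phosphorylates the active-site serine of acetylcholinesterase (Ache), which ends cholinergic signalling, and of related serine hydrolases such as butyrylcholinesterase (Bche). PON1 is a liver-made enzyme that circulates on high-density lipoprotein and hydrolyses the oxon. The R192 form hydrolyses it more efficiently than the Q192 form. The comparison asks what repeated maternal CPO at the highest dose does to gene expression in fetal brains of the line with the more efficient human enzyme.

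The order of the samples is inferred and is not stated by the submitters. The 60 samples were numbered 1 to 60 by group label and replicate, the numbers were sorted as text (10 before 1, 1 before 20), and the label of each sorted number was given to the value column in the same place. By this order 13 arrays kept their label and 47 changed it. None of the 10 arrays kept its label. The 5 arrays assigned to R-tg at 0.85 are labelled Q-tg at 0.85 (3 arrays) and R-tg at 0 (2 arrays), and the 5 assigned to R-tg at 0 are labelled WT at 0 (2 arrays) and WT at 0.75 (3 arrays).

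The order was chosen by the levels of Pon1, the gene removed in the KO line of the series, and these levels are given as a description. With the inferred order, all 15 KO arrays had Pon1 below 7 (4.84 to 5.67 on the log2 scale), and the other 45 arrays lay between 9.72 and 10.14. With the submitted labels, 10 of the 15 KO arrays were below 7 and 5 arrays of other labels were too. The 15 R-tg arrays had 9.74 to 10.12. Between KO and the other arrays, 18 of 21789 transcript clusters (0.0826%) did not overlap in the inferred order and 0 did not overlap under the labels. No transcript cluster separated R-tg, Q-tg or WT from the remaining arrays, in either order. Since Pon1 served to choose the order, its levels are no independent check of it. The 18 transcript clusters describe the same split of KO from the other arrays. The assignment of these 10 arrays to R-tg rather than WT or Q-tg, and to one dose rather than another, has no check. Every result below holds for the arrays so assigned.

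**Figure D1:**
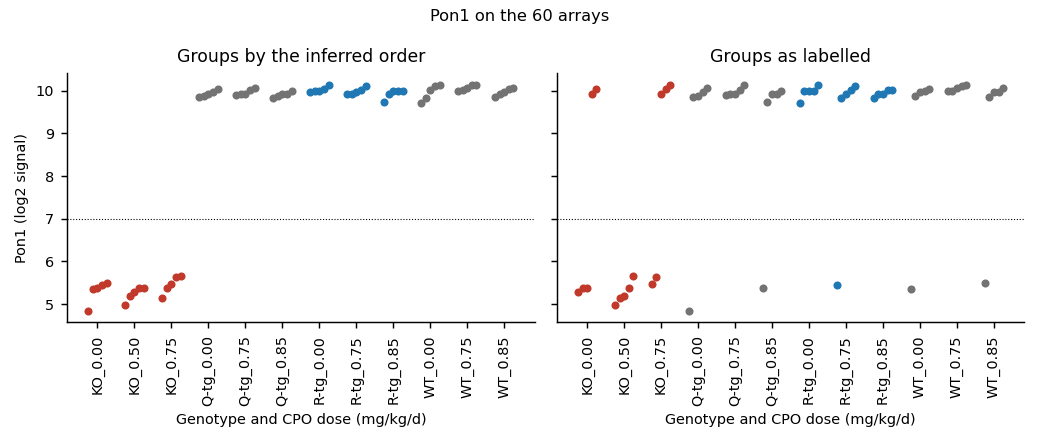
Pon1 level (log2 signal, vertical axis) on the 60 arrays, 1 point per array, by group (horizontal axis) in the inferred order (left) and as labelled (right). KO is red, R-tg blue and the other genotypes grey. In the inferred order all 15 KO points lie below the dotted line at 7, and as labelled 10 of them do.

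Any pair of the 10 arrays correlated at 0.9887 to 0.998 over the 21789 transcript clusters (the rows of the array, usually 1 per gene) with exactly 1 gene symbol, with a median of 0.9955 within the 2 groups and 0.9958 between them, and no pair was identical. Forebrain genes were well above the dim level of 6.54, below which 95% of olfactory receptor transcript clusters lie. Neurod6, a transcription factor of cortical neurons, had 10.22 to 10.71, Tbr1, another, 10.11 to 10.36, and Gad1, which makes GABA, 10.25 to 10.51. A few arrays stood apart. At dose 0, replicate 4 had genes of bone and nasal gland far above the other arrays (values below), and at 0.85, replicate 4 had growth hormone (Gh) at 10.73 and the lowest array weight of the 10, limma's estimate of an array's relative precision (0.23, against a median of 1.2 over the 60 arrays). Replicate 2 at 0.85 followed with a weight of 0.44.

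At the highest dose no gene passed. limma called 0 of 21789 transcript clusters (0%) at an adjusted p under 0.05, and the smallest adjusted p was 0.18. At an unadjusted p under 0.05 there were 2838 (13%), of which 1881 had higher values at 0.85 (8.63%) and 957 had lower values (4.39%). The ranges of the 2 groups did not overlap for 489 (2.24%), 218 higher and 271 lower. The excess on the higher side depended on scaling: with each array centred on its median, 2312 had an unadjusted p under 0.05, 1170 higher and 1142 lower. Without replicate 2 at 0.85 the count was 2068, without replicate 4 at 0.85 it was 3762 and without replicate 4 at 0 it was 3155. Without replicates 2 and 4 at 0.85 and replicate 4 at 0 it was 2097 (1199 higher, 898 lower). With the arrays grouped as labelled, limma called 0, and 1058 had an unadjusted p under 0.05 (302 higher, 756 lower).

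Most genes had slightly higher values at 0.85, by an amount that followed the level of the gene. Over all 19938 genes (the brightest transcript cluster of each) the median log2 difference was 0.041, and 69.6% of genes had higher values at 0.85. With the transcript clusters split into 5 equal classes by mean level, the median was 0.07 with 77.4% higher in the dimmest class (2.44 to 6.07), and 0.059, 0.041 and 0.025 in the next ones. In the brightest class (9.32 to 13.7) it was 0.004 with 52.4% higher. There, transcript clusters with lower values at an unadjusted p under 0.05 outnumbered those with higher values, 486 against 311. The lower quartile of the signal of an array was 6.039 ± 0.074 (SD, n = 5) at 0 and 6.097 ± 0.110 at 0.85 (exact permutation test, 2-sided, p = 0.325; the smallest p possible is 0.00794). The part of this shift of the signal distribution in the counts was not tested beyond the fits with it as covariate, in which 3264 transcript clusters had an unadjusted p under 0.05 (2443 higher, 821 lower). In WT the medians ran the other way, from -0.032 in the dimmest class to 0.03 in the brightest, and in Q-tg they lay between 0.004 and 0.029.

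**Figure D2:**
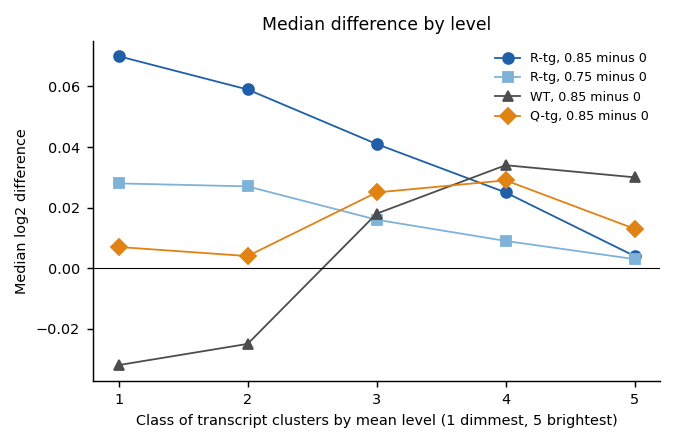
Median log2 difference (vertical axis) in 5 equal classes of the 21789 transcript clusters by mean level (horizontal axis, dimmest to brightest), for R-tg at 0.75 and at 0.85, and for WT and Q-tg at 0.85, each against its own dose 0. The R-tg medians at 0.85 go from 0.07 down to 0.004, and the WT medians from -0.032 up to 0.03; the R-tg lines share their controls.

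The 25 genes with the smallest p were 14 with higher and 11 with lower values at 0.85, and 6 of them were dim. The groups did not overlap for 19 of the 25 (10 higher and 9 lower, against 2.24% of all transcript clusters), a separation that a choice by smallest p favours. Their limma adjusted p lay between 0.18 and 0.239, and they are given as values, not as changes.

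Among genes with lower values, Snx16, a sorting nexin of endosomes, had 9.40, 9.50, 9.46, 9.34 and 9.42 at 0 and 9.16, 9.20, 9.20, 9.28 and 9.23 at 0.85. All arrays at 0.85 were below all arrays at 0, and the difference was -0.21 log2 units (standard error of the model, SE, 0.05, limma adjusted p = 0.18). Ppp4r3b, a regulatory subunit of protein phosphatase 4, had 9.98, 9.92, 9.97, 9.87 and 9.92 at 0 and 9.74, 9.64, 9.73, 9.69 and 9.69 at 0.85, again with no overlap (-0.24, SE 0.05, limma adjusted p = 0.18). Gabrb2, the beta-2 subunit of the GABA-A receptor, had 10.91, 10.80, 10.93, 10.63 and 10.69 at 0 and 10.47, 10.52, 10.54, 10.35 and 10.47 at 0.85 (-0.32, SE 0.08, limma adjusted p = 0.225). Cdh12, a cadherin of neurons, had 9.34 to 9.58 at 0 and 9.07 to 9.26 at 0.85 (-0.26). Pdcd4, an inhibitor of translation initiation, had 9.96 to 10.07 at 0 and 9.42 to 9.78 at 0.85 (-0.35), the lowest value being that of replicate 2. Mettl4, a methyltransferase of nucleic acids, had 9.03 to 9.14 at 0 and 8.55 to 8.96 at 0.85 (-0.27). Slc25a36, a mitochondrial carrier of pyrimidine nucleotides, had -0.19, Tmem184c -0.15 and the zinc finger gene Zfp738 -0.46, all without overlap. Clgn, a chaperone of the endoplasmic reticulum, had -0.22 and overlapped through replicate 4 at 0.85 (8.04 against a lowest value of 7.96 at 0). Llph, which is dim, had -0.47 with overlap.

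Among genes with higher values, Wnt2, a secreted Wnt ligand, had 6.27, 6.34, 6.17, 6.31 and 6.30 at 0 and 6.55, 6.89, 6.65, 6.46 and 6.60 at 0.85, with every array at 0.85 above every array at 0 (0.35, SE 0.08, limma adjusted p = 0.18). Its levels lie around the dim level. Hdgfl2, a chromatin-bound protein of the HDGF family, had 8.26 to 8.42 at 0 and 8.48 to 8.52 at 0.85 (0.16, SE 0.04, limma adjusted p = 0.211), a narrow group above a wider one. Sgsh, the lysosomal sulfatase that acts on heparan sulfate, had 7.20 to 7.38 at 0 and 7.41 to 7.64 at 0.85 (0.19). Trafd1, a zinc finger regulator of innate immune signalling, had 10.15 to 10.37 at 0 and 10.39 to 10.48 at 0.85 (0.19). Slc5a6, the sodium-dependent transporter of biotin and pantothenate, had 0.25 and Minpp1, a phosphatase of inositol polyphosphates, 0.27, both without overlap. Miga2, a protein of the outer mitochondrial membrane, had 0.20, Tsr3, which modifies ribosomal RNA, 0.21 and Sh2b3, an adaptor of cytokine receptor signalling, 0.18, each with overlapping ranges. The other five were dim: Gnat3, the taste G protein gustducin (0.38), Pdzph1 (0.29), Trim38, a ubiquitin ligase (0.40), Chil3, a chitinase-like protein of macrophages (0.54), and Cyp4a12a, a fatty acid hydroxylase (0.45). All but Cyp4a12a of these dim genes had groups that did not overlap, at levels where probes carry little signal.

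At 0.75 mg/kg/d the comparison shares its controls with this one, so the values are set side by side and are no separate check. Snx16 had 9.30 to 9.41 at 0.75 (-0.08 against 0), Ppp4r3b 9.75 to 9.96 (-0.10), Gabrb2 10.60 to 10.79 (-0.15), Wnt2 6.36 to 6.52 (0.13) and Hdgfl2 8.29 to 8.46 (0.05). All 5 means lay between those at 0 and at 0.85, an order that a choice by smallest p at 0.85 against 0 favours. At 0.75 against 0 none passed limma (0%), and 794 transcript clusters had an unadjusted p under 0.05 (3.64%).

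**Figure D3:**
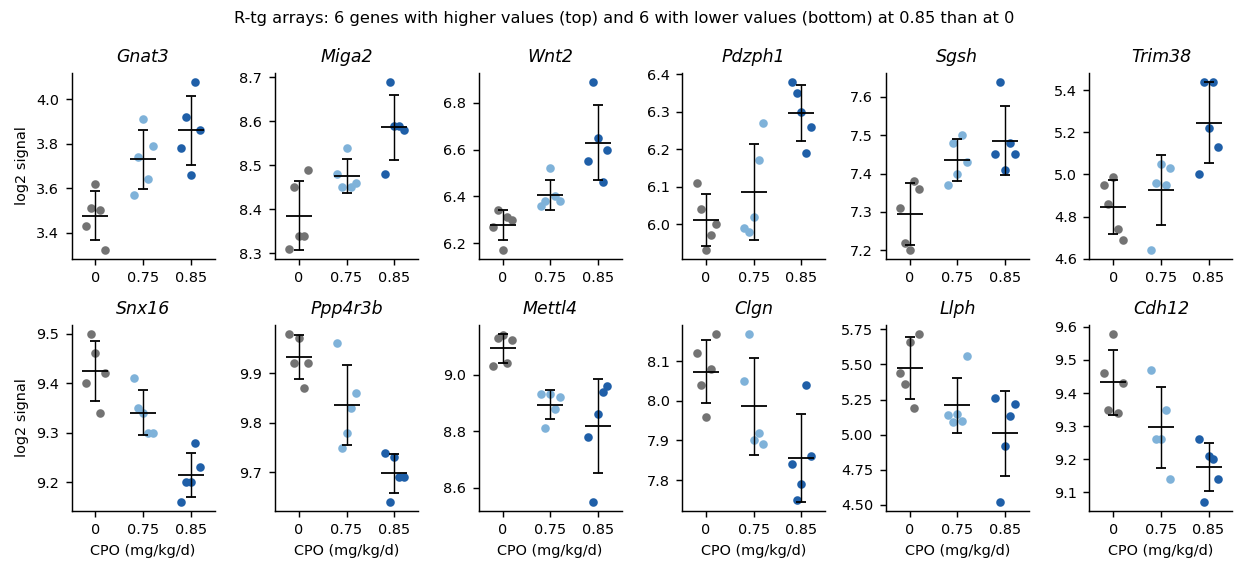
Level (log2 signal, vertical axes) of 12 of the 25 genes with the smallest p in R-tg, by CPO dose (horizontal axes, mg/kg/d), 1 point per array, with mean and SD (n = 5). The top row has higher and the bottom row lower values at 0.85; Snx16 had 9.34 to 9.50 at 0 and 9.16 to 9.28 at 0.85.

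None of the mouse paraoxonase genes, and none of the genes for the oxon's targets, passed. No value of the human PON1 transgene is given here. Ache had 9.02, 8.86, 8.84, 8.90 and 8.99 at 0 and 8.88, 8.92, 8.77, 9.07 and 8.75 at 0.85, and differed by -0.04 log2 units (SE 0.06, limma adjusted p = 0.789). At 0.75 it lay between 8.96 and 9.13, so the values do not follow the dose. Bche had 6.62 to 7.10 at 0 and 6.70 to 7.07 at 0.85 (-0.002, SE 0.077, limma adjusted p = 0.991). Mouse Pon1 was 10.02 ± 0.06 (SD, n = 5) at 0 and 9.93 ± 0.11 at 0.85 (-0.09, SE 0.08, limma adjusted p = 0.641). Its intracellular relative Pon2 differed by 0.01 (SE 0.06) and Pon3 by 0.02 (SE 0.07). Of 21 measured serine hydrolases that bind organophosphates, 13 had higher and 8 lower values, with a median of 0.013 against 0.041 over all genes. The 4 with the largest differences were Dagla (0.11) and Daglb (0.11), which make the endocannabinoid 2-arachidonoylglycerol, Apeh (0.10), an acylpeptide hydrolase, and Faah (0.08), which degrades anandamide. Of 20 cholinergic genes 14 had higher values, a share of 70% against 69.6% of all genes, with a median of 0.057. Their largest differences were 0.19 for Chat, which makes acetylcholine and is dim here, 0.15 for Prima1, the membrane anchor of acetylcholinesterase, 0.13 for the nicotinic receptor subunit Chrnb2 and 0.12 for the muscarinic receptor Chrm4. No gene of these lists passed limma, and none had groups without overlap.

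Heat shock genes, the chaperones and co-chaperones that fold proteins under stress, had the lowest median of the 36 lists described. Of 13 measured members 9 had lower values at 0.85, with a median of -0.063. None passed limma (0 of 13). At an unadjusted p under 0.05, 6 of the 13 were lower and 0 higher, where 4.39% of all transcript clusters were lower. These genes are strongly expressed: 8 of the 13 lie in the brightest class, where 11.2% of transcript clusters were lower at that threshold, and 5 of the 6 are among these 8.

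Chordc1, a co-chaperone of Hsp90, had 9.73, 9.61, 9.72, 9.47 and 9.71 at 0, 9.65, 9.40, 9.30, 9.49 and 9.50 at 0.75 and 9.34, 9.12, 9.41, 9.19 and 9.47 at 0.85. The groups at 0 and 0.85 did not overlap, although the highest array at 0.85 and the lowest at 0 are equal to 2 decimals, and the difference was -0.34 (SE 0.11, limma adjusted p = 0.257). Hspe1, the mitochondrial co-chaperonin that caps Hspd1, had 10.47, 10.34, 10.33, 10.26 and 10.29 at 0 and 10.07, 10.01, 10.20, 10.12 and 10.17 at 0.85, with no overlap (-0.23, SE 0.07, limma adjusted p = 0.257). Hspd1 itself, whose promoter Hspe1 shares, differed by -0.02 (SE 0.04). Dnaja1, an Hsp40 partner of Hsp70, had 10.73, 10.74, 10.59, 10.56 and 10.70 at 0 and 10.50, 10.45, 10.60, 10.40 and 10.67 at 0.85 (-0.14, SE 0.06), so that its groups overlap. Hsp90aa1, the stress-inducible Hsp90, had 12.17, 12.11, 12.11, 12.05 and 12.13 at 0 and 12.02, 12.02, 12.04, 12.04 and 12.06 at 0.85 (-0.08, SE 0.03). Here the 0.85 arrays lie close together and 1 of them exceeds the lowest control. Hspa4l, of the Hsp110 family, differed by -0.11 and Hspa8, the constitutive Hsc70, by -0.09. Bag3 (0.11) and Hspa1a (0.08), a gene with a near-identical copy that probes may not tell apart, had higher values. At 0.75 against the same controls, Chordc1 had -0.18, Hspe1 -0.05 and Dnaja1 -0.04. In WT at 0.85, with other controls, Chordc1 had 0.10, Hspe1 -0.03 and the list median was 0.03. In Q-tg these were -0.15, -0.10 and -0.022.

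The count of lower heat shock genes at an unadjusted p under 0.05 was 4 to 6 under every alternative run, and the median lay between -0.083 and -0.023. It was -0.023 with 4 lower and 1 higher without replicate 2 at 0.85, whose Hspa8 (12.59) and Chordc1 (9.12) are the lowest of the 10 arrays, and -0.024 with the lower quartile of the signal as covariate. Without the 3 arrays that stand apart, 10 of 13 had lower values with a median of -0.046.

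Because heat shock genes are switched on through the heat shock element, promoters of 11 members with a RefSeq window (GRCm38.p6) were searched for its dyads GAANNTTC and TTCNNGAA, each of which reads the same on both strands, in the 250 bases before the start site. They occurred in 7 of the 11 and in 14.5% of 27025 genes. The stretches of Hspe1 (chr1:55088053-55088082, plus strand) and Dnaja1 (chr4:40722333-40722362, plus strand) are shown since these 2 have matches and were lower at an unadjusted p under 0.05. They lie 95 to 66 and 135 to 106 bases before the start site, and capitals mark the dyads, which overlap each other in Hspe1.
Hspe1: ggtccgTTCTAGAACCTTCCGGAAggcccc
Dnaja1: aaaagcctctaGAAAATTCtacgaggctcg
The other 5 members with a match were Hspa1a (0.08), Hsph1 (0.03), Hspb1 (0.01), Hspd1 (-0.02) and Dnajb4 (-0.06), none of them at an unadjusted p under 0.05. Of the 6 members that were lower at that threshold, only Hspe1 and Dnaja1 had a match. Chordc1 had no match in this window. The Hspe1 stretch read on the other strand is the promoter match of Hspd1.

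**Figure D4:**
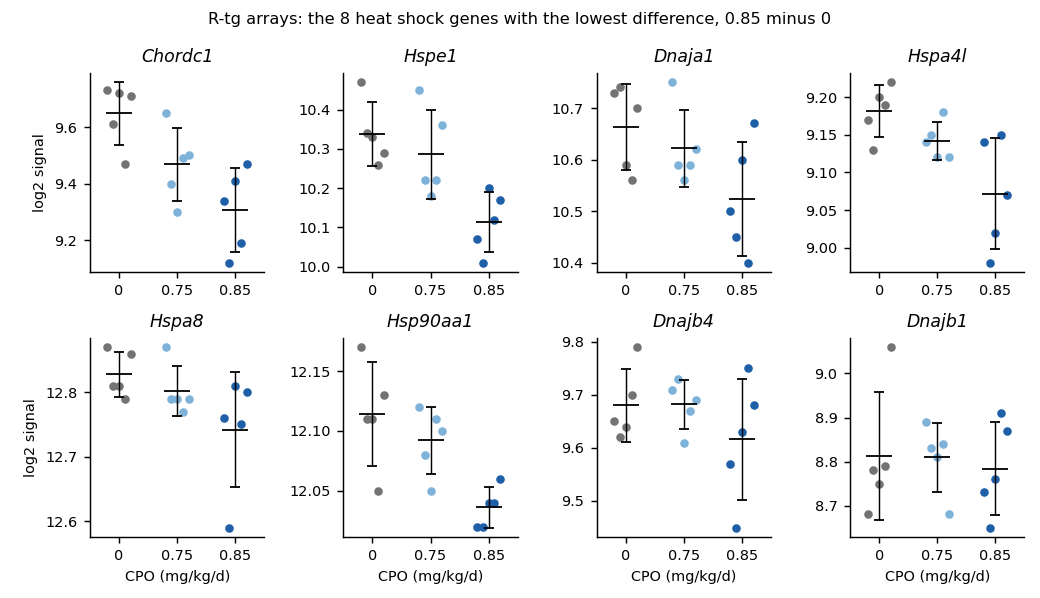
Level (log2 signal, vertical axes) of the 8 heat shock genes with the lowest differences in R-tg, by CPO dose (horizontal axes, mg/kg/d), 1 point per array, with mean and SD (n = 5). The groups at 0 and 0.85 do not overlap for Hspe1 (10.26 to 10.47 and 10.01 to 10.20) and overlap for Dnaja1.

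Chaperones of the endoplasmic reticulum gave a mixed picture. In the list of unfolded protein and amino acid stress genes 15 of 24 had higher values (median 0.029, 1 higher and 2 lower at an unadjusted p under 0.05, against 8.63% and 4.39% of all transcript clusters). Hsp90b1, the Hsp90 of the endoplasmic reticulum, had 11.21, 11.28, 11.28, 11.28 and 11.29 at 0 and 11.16, 11.09, 11.19, 11.18 and 11.18 at 0.85, with no overlap (-0.11, SE 0.04, limma adjusted p = 0.257). Dnajb9, a co-chaperone of BiP, had 9.22 to 9.40 at 0 and 8.88 to 9.24 at 0.85 (-0.18). Sesn2 (0.15) and Chac1 (0.10), targets of the amino acid response, had higher values, so the list did not differ in 1 direction.

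Neuronal lists had medians between 0.001 and 0.073, against 0.041 over all genes. Synapse genes were split evenly, 12 higher and 12 lower, with a median of 0.001 and the largest differences in the glutamate receptor subunit Gria2 (-0.13), the scaffold genes Dlgap1 (0.11) and Shank2 (0.09), and Grin2a (-0.09). Axon guidance genes had a median of 0.003, with 15 of 27 higher, and 4 lower and 1 higher at an unadjusted p under 0.05, where 4.39% of all transcript clusters were lower and 8.63% higher. The median lay between -0.024 and 0.015 over the alternatives. Epha7 (-0.12), Slit2 (-0.11) and Sema3a (-0.11), guidance cues and receptors, had lower values and the ligand Efnb1 (0.12) a higher one. Cortical projection neuron genes had a median of 0.051. Rorb, a nuclear receptor of layer 4 neurons, had lower values without overlap (-0.17, SE 0.06, limma adjusted p = 0.264), and Fezf2 and Bcl11b, factors of deep-layer neurons, had 0.17 and 0.11. GABA neuron genes had higher values in 13 of 14, against 69.6% of all genes, with a median of 0.071. At an unadjusted p under 0.05, 1 was higher and 0 lower, against 8.63% and 4.39% of all transcript clusters. Gsx2 (0.12, dim), Dlx2 (0.12), Gad1 (0.10) and Npy (0.10) had the largest differences.

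Of 11 monoamine neuron genes 9 had higher values (median 0.073), 3 of them at an unadjusted p under 0.05 where 8.63% of all transcript clusters were. Th, the rate-limiting enzyme of dopamine synthesis, had 7.59, 7.52, 7.47, 7.54 and 7.56 at 0 and 7.65, 7.88, 7.62, 7.87 and 7.66 at 0.85, with no overlap (0.20, SE 0.07, limma adjusted p = 0.262). Its 2 highest values at 0.85 were those of replicates 2 and 4, which stand apart. At 0.75 its arrays had 7.63 to 7.76. Ddc, the next enzyme of the pathway, had 0.16, Pitx3, a factor of dopamine neurons, 0.15 and En1, a factor of the midbrain, 0.14. En1 also had 0.11 in WT and 0.10 in Q-tg at 0.85.

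Glial and progenitor lists gave no common direction. Radial glia and progenitor genes had a median of -0.026 with 10 of 16 lower, although Hes5 (0.14) and Notch1 (0.14) had higher values and Ptprz1 (-0.10) a lower one. The median lay between -0.045 and 0.003 over the alternatives, so its sign was not kept. Astrocyte genes had a median of 0.009 and microglia genes 0.017. Of either list 0 members had an unadjusted p under 0.05, against 13% of all transcript clusters. Oligodendrocyte lineage genes had a median of 0.063, led by the myelin gene Mog (0.25). Cell cycle genes had a median of 0.045, with -0.14 for Top2a and 0.13 for Aurka.

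The values of a few more lists are given beside the 69.6% of all genes that had higher values at 0.85. In the Notch, Wnt and Shh pathways 21 of 23 were higher (median 0.055, 4 higher at an unadjusted p under 0.05, against 8.63% of all transcript clusters), with 0.17 for the Wnt inhibitor Dkk1, 0.16 for the ligands Wnt3a and Wnt8b (the latter dim) and 0.14 for the Notch target Hes5. Vascular and pericyte genes were higher in 21 of 24 (median 0.057, 3 higher at an unadjusted p under 0.05, where 8.63% of all transcript clusters were), among them the endothelial genes Esam (0.20) and Vwf (0.18) and the pericyte receptor Pdgfrb (0.15), while the endothelial gene Emcn was lower (-0.12). Immediate early genes, which respond to neuronal activity, were higher in 13 of 16 (median 0.085), with 0.18 for Egr4, 0.14 for Junb, 0.12 for Btg2 and 0.12 for Dusp1. At 0.85, Btg2 had 8.27 and 8.46 in replicates 2 and 4. Its other arrays at 0.85 had 8.02, 8.01 and 8.06, against 7.92 to 8.14 at 0. No member of these lists passed limma. With 69.6% of all genes higher, 15 of the 36 lists had a median above that of all genes and 3 had a median below 0. Centring each array on its median lowers every difference by 0.02.

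**Figure D5:**
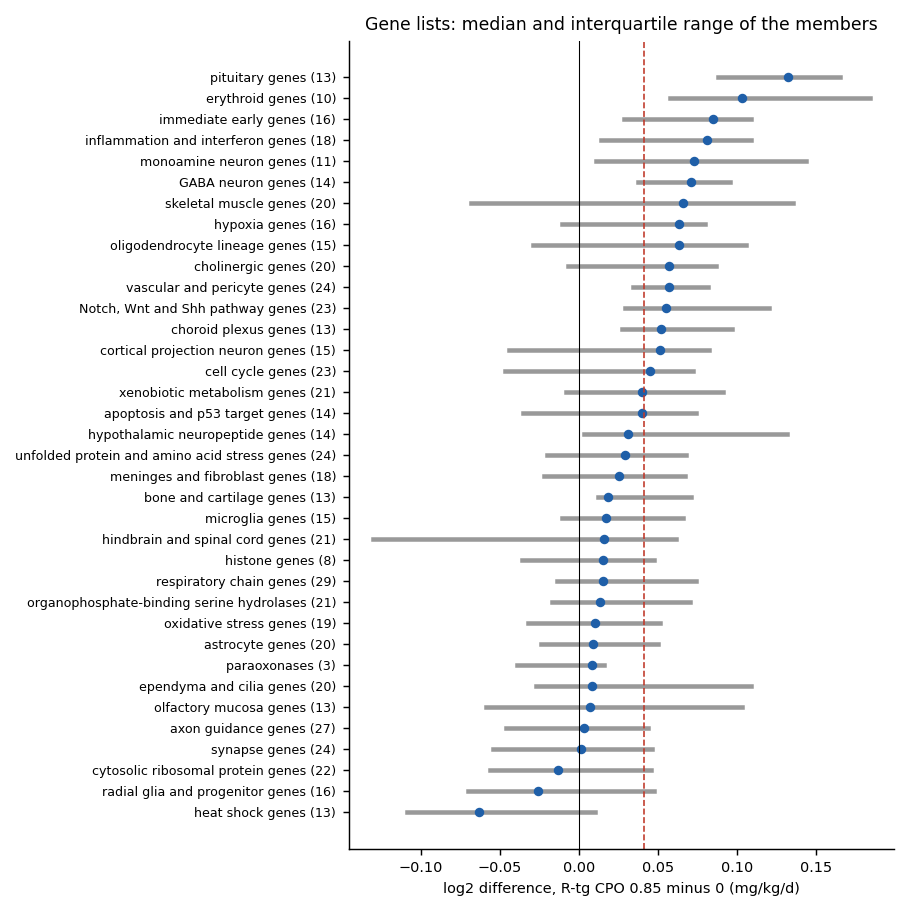
Median log2 difference of R-tg at 0.85 minus 0 (points, horizontal axis) and interquartile range of the members (bars) for 36 gene lists (vertical axis, measured members in brackets). The dashed line is the median of all genes, 0.041; heat shock genes are lowest (-0.063) and pituitary genes highest (0.132).

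Markers of neighbouring tissues differed between single arrays more than between doses. In a pool of whole brains, a smaller amount of a tissue and less RNA per cell cannot be told apart. Pituitary genes were higher in 12 of 13 (5 dim, median 0.132), led by Tbx19 (0.28) and Tshb (0.26), both dim. Their summed level was 10.01 to 11.17 (log2 of the sum) at 0 and 10.35 to 11.49 at 0.85, and Gh was high in replicate 1 at 0 (10.11) and replicate 4 at 0.85 (10.73) alone, the others lying between 6.51 and 8.11. Bone and cartilage genes summed to 10.83 to 11.50 at 0 and 10.85 to 10.99 at 0.85. Replicate 4 at 0 had Bpifb9b, a secreted protein of nasal glands, at 10.32 where the other 9 arrays had 3.88 to 4.34, Ibsp, a protein of mineralizing bone, at 9.69 against 5.58 to 6.02, and Col1a1 at 10.66 against 8.72 to 9.02. The differences of -1.15, -0.78 and -0.26 for these 3 genes come from that array. Hindbrain and spinal cord genes had a median of 0.016, with Hoxa5 at 5.78 to 8.18 at 0 and 6.09 to 7.74 at 0.85. Xist was low in 2 arrays at each of the 2 doses and the Y-linked gene Eif2s3y in 1 array at 0 and 0 at 0.85. Erythroid genes were higher in 8 of 10 (median 0.103), and 6 of the 10 are dim. The part of these tissues in the other results was not tested beyond the fits with Hoxa5 and Gh or the sex ratio as covariates, in which 0 passed limma, and 2853 and 2966 had an unadjusted p under 0.05.

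Compared with WT at the same dose, the R-tg response differed for 1 of 21789 transcript clusters (0.00459%). An unadjusted p under 0.05 was found for 2507 (11.5%). This count was 1452 without WT replicate 1 at 0, 1653 without WT replicate 5 at 0, 1523 without WT replicate 2 at 0.85, 4156 without WT replicate 4 at 0.85 and 3882 without R-tg replicate 4 at 0.85. The gene that passed was Olfr124, an olfactory receptor gene at a dim level, outside the naming rule and named after its values were seen. In R-tg it had 5.30, 5.21, 5.24, 5.41 and 5.22 at 0 and 5.36, 5.66, 5.57, 5.29 and 5.50 at 0.85 (0.20). In WT it had 5.59 to 5.96 at 0 and 4.98 to 5.62 at 0.85 (-0.43). The difference of the responses was 0.63 (SE 0.11, limma adjusted p = 0.0092), and WT contributed more to it than R-tg. The count of calls was 0 in the fit on the arrays of the contrast only (smallest limma adjusted p = 0.661, with 1424 at an unadjusted p under 0.05). It was also 0 without dim transcript clusters, without R-tg replicate 2 at 0.85 or without WT replicate 1 at 0. It was 3 without R-tg replicate 4 at 0.85, 4 without WT replicate 2 at 0, 2 without WT replicate 3 at 0.85 and 20 without WT replicate 4 at 0.85. With array weights it was 7. The genes next in order did not pass: Snx13, a sorting nexin (-0.31, limma adjusted p = 0.115), Dhrs11, a dehydrogenase (0.35, limma adjusted p = 0.115), and Snx16 (-0.31, limma adjusted p = 0.119). Snx13 had 9.32 ± 0.05 (SD, n = 5) at 0 and 9.17 ± 0.09 at 0.85 in R-tg, and 9.14 ± 0.13 and 9.30 ± 0.09 in WT.

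Across all transcript clusters the R-tg and WT responses at 0.85, which share no arrays, correlated at r = -0.195 (Spearman -0.224), and the R-tg and Q-tg responses at r = 0.176 (Spearman 0.155). These are descriptions over genes, which are not independent and share the array, the scaling and the course of the medians by level. Of the 25 genes of smallest p in R-tg, 19 had the opposite sign in WT and 6 in Q-tg, and 0 of the 25 passed either test of the difference. The share of opposite signs over all transcript clusters was not counted, so these counts are not read as particular to the 25.

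Against Q-tg, the line with the other human form, none passed limma (0%). The smallest adjusted p was 0.313, and 794 transcript clusters had an unadjusted p under 0.05 (3.64%). That count was 1641 without R-tg replicate 4 at 0.85 and 1830 with array weights, and limma called 0 in both fits. The smallest p belonged to Fpr-rs6, a dim receptor gene (0.59), Csrnp1, a nuclear transcription factor (0.38), and Pdzph1 (0.39). Csrnp1 had 6.73 ± 0.07 (SD, n = 5) at 0 and 6.88 ± 0.12 at 0.85 in R-tg, and 6.88 ± 0.10 and 6.65 ± 0.09 in Q-tg.

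Between 0.85 and 0.75 mg/kg/d within R-tg, none passed limma (0%). The smallest adjusted p was 0.92, and 1114 transcript clusters had an unadjusted p under 0.05 (5.11%). Without R-tg replicate 1 at 0.75 the count was 643, and without R-tg replicate 4 at 0.85 it was 1824, with 0 called in both fits. With array weights limma called 87, and 2660 had an unadjusted p under 0.05. With the lower quartile as covariate it called 0, with 1690. Surf6, a nucleolar protein, had 7.62 to 7.74 at 0.75 and 7.75 to 7.93 at 0.85 (0.16). Cyp2j9, a cytochrome P450 of brain, had 7.64 to 7.75 at 0.75 and 7.37 to 7.56 at 0.85 (-0.22), with 7.38 to 7.72 at 0. Gpr151, a dim receptor of habenular neurons, had 6.08 to 6.34 at 0.75 and 6.39 to 6.50 at 0.85 (0.24). For all 3 genes the arrays at 0 overlapped those of both doses, although Surf6 at 0 (7.67 to 7.75) and at 0.85 met only at 7.75. The groups at 0.75 and 0.85 did not overlap for these 3, a separation that a choice by smallest p favours. The share of such transcript clusters in this contrast was not counted.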

How the data were processed

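The deposited values are log2 signals that the authors made with RMA in the oligo package under R 2.15.1, per the submitters' processing notes; the genome build is not given in the sources used here. They were used with no further scaling. Of 28858 transcript clusters, 21789 had exactly 1 symbol in GEO's platform annotation and were tested. The number of arrays limits the precision.

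Arrays were regrouped by the inferred order described in the report. One limma 3.58.1 model (R 4.3.3) with 12 groups was fitted to all 60 arrays, and p-values were 2-sided and adjusted by Benjamini-Hochberg, with a threshold of 0.05. Rules, members and lists (37 lists, 699 entries, 630 measured) were chosen with earlier results of these data known. The rule names the paraoxonase genes, Ache, Bche and the 25 genes with the smallest p. It also names the 4 members of a described list with the largest absolute difference. In other contrasts it names those that pass or the 3 with the smallest p. Predicted and small RNA genes give way, as do receptor genes with symbols that start with Olfr, Vmn or Taar. Other genes (the forebrain genes, further heat shock genes, Gh, Hoxa5, Xist, Eif2s3y and En1 in other groups) were named after their values were seen. Where a gene has several transcript clusters, the brightest stands for it in lists.

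In simulated data for the contrast at 0.85 against 0 (21789 transcript clusters), 46% of changes of 0.25 log2 units, 94% of 0.5 and 100% of 1 and of 2 were recovered. There were 50 changes of each size, planted together, and 8 false calls. The noise was independent and normal, with no shift of whole arrays and no array that stands apart. Recovery in the real arrays may therefore be lower. Alternatives were another variance prior, array weights, filters, centring, fewer arrays, the replicate block and covariates. Leaving out 3 arrays together was chosen after seeing the data.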

Additional observations from a re-analysis of the deposited data

Results flagged for a closer look

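In R-tg at 0.85, replicate 4 lay far from the other 4 arrays in Gh (10.73, nearest 6.88), Pon2 (7.88, nearest 7.59), Bche (7.07, nearest 6.76) and the upper quartile of the signal (9.04, nearest 8.93). Replicate 2 of that group was highest for Slc5a6 (8.43, nearest 8.23) and lowest for Pdcd4 (9.42, nearest 9.68). At dose 0, replicate 5 was lowest for the Y-linked gene Eif2s3y (4.53, nearest 8.25). These 7 came from 76 groups of 5 tested for a distant value with Dixon's criterion, which flags about 1 in 20 by chance.

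The response of Olfr124 differed between R-tg and WT by 0.63 in the limma test of the difference (adjusted p = 0.0092).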

How the results depend on the processing

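At 0.85 against 0 in R-tg, limma called 0 transcript clusters under every alternative run, the submitted labels included, with a smallest adjusted p of 0.0649 (array weights). With the replicate block, 0 were called and 2858 had an unadjusted p under 0.05. The main model does not pair the arrays by replicate number. Deviations of same-numbered arrays correlated at 0.511, 0.291 and 0.115 in replicates 2, 3 and 4, each of which matched its own number best. In replicates 1 and 5 they correlated at 0.015 and 0.007. Some structure by replicate number may therefore be present, and its source was not tested. Without single arrays 0 were called, with 2068 to 3762 at an unadjusted p under 0.05. The count for the difference from WT was 1, and 7 with array weights, 0 without dim transcript clusters, 0 with the arrays of the contrast only, 2 with the lower quartile as covariate and 7 without the 3 arrays that stand apart. It was 0 to 20 without single arrays: 0 without R-tg_0.85 replicate 2 or WT_0.00 replicate 1, 3 without R-tg_0.85 replicate 4, 4 without WT_0.00 replicate 2, 2 without WT_0.85 replicate 3 and 20 without WT_0.85 replicate 4. Between 0.85 and 0.75, array weights gave 87 in place of 0. The cause was not tested.

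Of 624 named-gene alternatives over 30 genes, 604 kept their direction and 20 reversed, all of them in genes with differences near 0. Since 25 of the 30 genes were chosen by the smallest p in this contrast, a kept direction is favoured by the choice. Pon2 had -0.041 with array weights, -0.012 after centring, -0.057 without the 3 arrays and -0.057 to 0.041 without single arrays. Pon3 had -0.038 with array weights, -0.052 without the 3 arrays and -0.031 to 0.064 without single arrays. Ache had 0.003 and Bche 0.046 with the lower quartile as covariate, and Bche 0.004 with Hoxa5 and Gh and -0.071 to 0.075 without single arrays. With 5 arrays a group and simulated recovery of 46% at 0.25 log2 units, differences of the size of the heat shock genes could be missed.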

Other observations

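Lists of cell metabolism and defence, not described above, had small differences at 0.85 in R-tg, and no member passed limma. Respiratory chain genes were higher in 16 of 29 (median 0.015, 4 higher and 1 lower at an unadjusted p under 0.05, against 8.63% and 4.39% of all transcript clusters), with 0.15 for Sdhd and 0.12 for Sdhb, subunits of succinate dehydrogenase, and -0.11 for Cox7a2, a subunit of cytochrome c oxidase. Sdhb and Cox7a2 had groups that did not overlap, in opposite directions, as had 2.24% of all transcript clusters. The median of this list lay between -0.006 and 0.036 over the alternatives. Cytosolic ribosomal protein genes were lower in 12 of 22 (median -0.013). Oxidative stress genes had a median of 0.01, with 0.14 for the superoxide dismutase Sod1 (SE 0.05, limma adjusted p = 0.264). Hypoxia genes were higher in 11 of 16 (median 0.063), with 0.14 for Ankrd37 and 0.10 for Ldha.

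Inflammation and interferon genes were higher in 15 of 18 (median 0.081), but 10 of the 18 are dim. The cytokine Il6, which is dim, had higher values without overlap (0.24, SE 0.08, limma adjusted p = 0.257), and the interferon-induced gene Ifit3, also dim, had lower values (-0.15). Among apoptosis and p53 target genes the death receptor Fas, which is dim, had higher values (0.17) and the cyclin Ccng1 lower values (-0.08), both without overlap. Of all transcript clusters 1% were higher and 1.24% lower without overlap, and the members named here were chosen by the size of their difference. Xenobiotic metabolism genes had a median of 0.04, 12 of 21 being dim, with 0.22 for Ahrr, 0.21 for Cyp2b10 and 0.15 for Cyp1a1, all dim. Histone genes had a median of 0.015. Des, an intermediate filament of muscle and pericytes that is dim here, had higher values without overlap (0.29, SE 0.09, limma adjusted p = 0.257) in a skeletal muscle list with a median of 0.066.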
